A study of Mus musculus with 27 samples.

Results

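A set of 10 genes for immune checkpoint ligands was followed through CT26 tumors in which Mettl3 or Mettl14 had been knocked out. The 10 genes were Cd274, Pdcd1lg2, Cd80, Cd86, Lgals9, Pvr, Nectin2, Tnfrsf14, Cd276 and Vsir, taken by symbol from the 54752 genes of the count tables, and each had 1 row there. CT26 is an established mouse colon carcinoma line, and Mettl3 and Mettl14 form the enzyme that adds N6-methyladenosine to RNA. The RNA-seq samples were 5 control tumors, 5 tumors of Mettl3 knockout cells (Mettl3 KO) and 5 tumors of Mettl14 knockout cells (Mettl14 KO). The cells of every group had received a guide RNA by retrovirus, a control guide in the control group, and were injected with Matrigel under the skin of BALB/c mice. The design text places all 3 groups under anti-PD-1 therapy, so the controls were treated too. The protocols list 200 µg (10 mg/kg) of anti-PD1 and/or anti-CTLA-4 and of IgG antibodies between days 11 and 23, without an arm for each sample. The sources used here give neither the age of the mice nor whether a knockout line was 1 clone or each library came from 1 mouse. The p-values below therefore measure the spread between libraries. Only the implanted cells carried a guide, whereas a tumor also holds the host's intact immune, vessel and stromal cells.

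Checkpoint ligands are surface or secreted proteins that engage receptors on T cells and other lymphocytes. Cd274 (PD-L1) and Pdcd1lg2 (PD-L2) bind PD-1, the receptor that anti-PD-1 antibodies block, and dampen T cell activity. Interferon gamma, released by activated T cells, is a well-known inducer of Cd274 in tumor cells and myeloid cells, acting in part through the transcription factor IRF1.

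The stretches upstream of the PD-1 ligand genes and of the members with an interferon-type motif are shown because these genes had the largest differences or carried that motif. Cd274 (ENSMUSG00000016496) lies at chr19:29367455-29388095 and Pdcd1lg2 (ENSMUSG00000016498) at chr19:29410919-29471161 of mm10, both on the plus strand, with 22.8 kb between them. The sequences are RefSeq's for GRCm38.p6, 5′ to 3′ along the gene's strand, with motif matches in capitals. For the PD-1 ligands they are the 250 bases before the RefSeq start, at chr19:29367188-29367437 for Cd274 and chr19:29410669-29410918 for Pdcd1lg2. For Tnfrsf14 and Lgals9 they are 30 bases around the match, at chr4:154928122-154928151 and chr11:78984960-78984989 of the minus strand.
Cd274: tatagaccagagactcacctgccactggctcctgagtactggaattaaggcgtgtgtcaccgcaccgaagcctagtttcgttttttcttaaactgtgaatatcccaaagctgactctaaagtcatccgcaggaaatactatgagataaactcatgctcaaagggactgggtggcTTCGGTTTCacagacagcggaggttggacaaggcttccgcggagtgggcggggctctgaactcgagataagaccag
Pdcd1lg2: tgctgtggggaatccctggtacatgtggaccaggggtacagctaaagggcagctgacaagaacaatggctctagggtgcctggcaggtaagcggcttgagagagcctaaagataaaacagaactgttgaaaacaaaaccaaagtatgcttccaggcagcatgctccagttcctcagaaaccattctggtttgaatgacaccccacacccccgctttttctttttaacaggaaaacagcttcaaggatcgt
Tnfrsf14: ctattttttcTTTCATTTTCacttttcctt
Lgals9: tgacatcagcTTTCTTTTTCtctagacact

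Motifs were searched on both strands of the 250 bases upstream, for which 8 of the 10 members had an entry (Cd86 and Pvr had none). A short interferon regulatory factor motif, GAAANNGAA, was found for 3 of 8 members, Cd274, Lgals9 and Tnfrsf14, and in 7.13% of all 32851 windows of this length. The interferon-stimulated response element, searched as that motif with a further A at its end, was found for 2 of 8, Lgals9 and Tnfrsf14, and in 2.98% of all windows. The Cd274 match began 76 bases, the Tnfrsf14 match 64 bases and the Lgals9 match 55 bases upstream of the RefSeq start. The windows of Lgals9, Tnfrsf14 and Cd276 overlapped exons of the same gene in the GENCODE annotation. The Tnfrsf14 match lay within the GENCODE span of its gene. The interferon gamma-activated site, searched as TTCNNNGAA, was found for 0 of 8 members and in 7.02% of all windows. The NF-kappa-B site GGGACTTTC was found for 0 of 8 and in 0.289% of windows. These are matches of letters within 1 window and show no binding.

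Gene reads per library, in units of 1000000, were 5.52 to 20.98 for control, 4.35 to 7.70 for Mettl3 KO and 6.45 to 17.02 for Mettl14 KO tumors. Some uniquely aligned reads overlapped no feature counted for a gene. They are called reads outside genes below, but where they lay was not examined and the strand setting is not stated. Their share was 44.29% to 78.56% in the control group, 60.23% to 77.98% for Mettl3 KO and 53.55% to 65.89% for Mettl14 KO. Control replicate 1 had the highest of these shares and the fewest gene reads of its group. Mettl3 RNA ranged from 13.4 to 22.7 counts per 1000000 gene reads (CPM) in control and from 12.4 to 16.2 CPM in Mettl3 KO. Mettl14 RNA ranged from 61.0 to 89.1 CPM in control and from 48.7 to 79.4 CPM in Mettl14 KO. The groups overlapped for both targeted genes, and a guide RNA need not lower the RNA of its target. Of the epithelial markers, Krt20 had a mean of 186 CPM in control, while Krt8 and Epcam were at 1.63 and 1.44 CPM.

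Levels are given as CPM on a common scale, as mean ± SD with n = 5, and differences as log2 fold changes with their standard error (SE). A member was called where edgeR's quasi-likelihood test gave a Benjamini-Hochberg adjusted p under 0.05 over all genes tested. In Mettl3 KO against control, 1 of 10 members rose, Cd274, and 0 fell, where 1.24% of all 21427 genes were called 0.406% higher and 0.835% lower. In Mettl14 KO against control 0 of 10 members and 0% of 21555 genes were called by edgeR. DESeq2 called 3 members in that comparison, Cd274, Pdcd1lg2 and Tnfrsf14, and 3.61% of genes, and in Mettl3 KO 2 members, Cd274 and Tnfrsf14, and 22.8% of genes. These and later DESeq2 shares are only of genes with an adjusted p, 13998 in Mettl14 KO and 11861 in Mettl3 KO. DESeq2 gave Pdcd1lg2 no adjusted p in Mettl3 KO (log2 difference 1.96, SE 0.55), so that gene was not judged there. Below an unadjusted p of 0.05 lay 5 of 10 members in Mettl3 KO and 3 of 10 in Mettl14 KO, beside 32.3% and 11.3% of all genes. The median log2 difference of the 10 members was 0.03 in Mettl3 KO and 0.40 in Mettl14 KO, beside -0.14 and -0.09 over all genes. With plain library totals the members' medians were 0.20 and 0.58 beside 0.02 and 0.08 over all genes. That scaling turned the split of all calls in Mettl3 KO from 87 higher and 179 lower to 106 and 16, and with RLE scaling to 72 and 28. The Cd274 call and direction were kept under both. A positive difference was found for 5 of 10 members and 44.9% of genes in Mettl3 KO, but for 8 of 10 members with RLE scaling (48.0% of genes) or library totals (51.0%). In Mettl14 KO it was found for 10 of 10 members and 39.2% of genes, and with library totals for 10 of 10 and 60.3%. Without Mettl14 KO replicate 4 it was found for 8 of 10 members and 40.5% of genes, with a members' median of 0.156. Without control replicate 1 it was found for 7 of 10 members and 49.4% of genes. The comparisons share their 5 control libraries.

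Cd274, the main ligand of PD-1, was the member that rose. In control replicates 1 to 5 it measured 26.7, 23.4, 29.2, 43.4 and 25.4 CPM. In Mettl3 KO it measured 143, 53.9, 79.7, 105 and 62.5 CPM, and in Mettl14 KO 149, 138, 53.7, 217 and 39.4 CPM. All Mettl3 KO libraries lay above every control, as did 4 of 5 Mettl14 KO libraries, and Mettl14 KO replicate 5 lay within the control range. Cd274 rose from 29.6 ± 7.96 to 88.9 ± 36.2 CPM in Mettl3 KO, a log2 difference of 1.55 (SE 0.30), or 2.93-fold with a 95% interval of 1.96 to 4.38 (edgeR adjusted p = 0.0397). In Mettl14 KO the mean was 119 ± 73.1 CPM, a log2 difference of 1.95 (SE 0.40), or 3.86-fold with an interval of 2.24 to 6.66, which did not pass (edgeR adjusted p = 0.13). Those values rested on 166 to 2771 reads per library.

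The Cd274 call in Mettl3 KO depended on the setting. It was lost with no filter on low counts (log2 difference 1.28, edgeR adjusted p = 0.124), with the share of reads outside genes as a covariate (1.26, edgeR adjusted p = 0.24) and with all 15 libraries in 1 fit (1.58, edgeR adjusted p = 0.0762). When each of the 10 libraries was left out in turn, the log2 difference ranged from 1.46 to 1.85 and the adjusted p from 0.00165 to 0.103, with the call lost in 7 of 10 cases. The call was kept without control replicate 1, control replicate 4 or Mettl3 KO replicate 2. In Mettl14 KO the difference passed without control replicate 1 (edgeR adjusted p = 0.0461) or without Mettl14 KO replicate 5 (edgeR adjusted p = 0.0203), fits that called 4.86% and 0.678% of genes.

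Pdcd1lg2, the other PD-1 ligand and the neighbour of Cd274, was the lowest of the 10 members in control, with 10 to 44 reads per library there. It measured 2.90, 0.960, 1.82, 2.30 and 2.20 CPM in control and 19.4, 3.72, 3.46, 7.37 and 4.37 CPM in Mettl3 KO. In Mettl14 KO it measured 10.4, 13.0, 0.658, 30.2 and 2.82 CPM. The Mettl3 KO libraries all lay above every control, whereas the Mettl14 KO libraries spread 45.9-fold and replicate 3 lay below every control. The log2 difference was 1.86 (SE 0.55) in Mettl3 KO and 2.42 (SE 0.73) in Mettl14 KO, and neither passed (edgeR adjusted p = 0.0598 and 0.259). In Mettl3 KO it was 0.94 with limma voom, 1.22 with the share of reads outside genes as a covariate and 1.301 without Mettl3 KO replicate 1. In Mettl14 KO it was 1.67 with limma voom and 1.69 without Mettl14 KO replicate 4. It passed in Mettl3 KO without control replicate 1 (log2 difference 2.19, edgeR adjusted p = 0.00368), a fit that called 51.6% of all genes. Cd274 and Pdcd1lg2 were the 2 members whose Mettl3 KO and control libraries did not overlap, a pattern seen in the higher direction for 1.76% of genes tested, and in the lower direction for 0 members and 1.68% of genes. No member had this pattern in Mettl14 KO, beside 0.682% of genes higher and 0.701% lower.

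Cd80 and Cd86 are the ligands of the activating receptor CD28 and the inhibitory receptor CTLA-4, found mainly on antigen-presenting cells. In mm10 Cd80 (ENSMUSG00000075122) lies at chr16:38455561-38496335 on the plus strand and Cd86 (ENSMUSG00000022901) at chr16:36603869-36666081 on the minus strand. Cd80 had a narrow range, 15.5 to 25.5 CPM in control tumors, 13.6 to 21.5 CPM in those of Mettl3 KO and 18.2 to 26.4 CPM in Mettl14 KO. Its groups overlapped, and its log2 difference from control was -0.42 (SE 0.17) in Mettl3 KO and 0.02 (SE 0.15) in Mettl14 KO, neither called by edgeR (adjusted p = 0.119 and 0.993). Cd86 measured 8.85, 18.9, 15.7, 13.0 and 12.1 CPM in control tumors, 32.1, 10.9, 15.1, 15.1 and 14.6 CPM in those of Mettl3 KO and 16.6, 17.7, 14.2, 39.7 and 10.2 CPM in Mettl14 KO. A single library stood high in each knockout, Mettl3 KO replicate 1 and Mettl14 KO replicate 4, and the others overlapped the controls. The log2 difference of Cd86 was 0.31 (SE 0.30) in Mettl3 KO and 0.47 (SE 0.31) in Mettl14 KO, with edgeR adjusted p of 0.421 and 0.648. The 95% intervals of its fold were 0.829 to 1.85 and 0.910 to 2.11.

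Lgals9 encodes galectin-9, a secreted sugar-binding protein and a ligand of TIM-3 (ENSMUSG00000001123, chr11:78962974-78984946, minus strand). It ranged from 20.0 to 39.2 CPM in control tumors, 22.1 to 41.7 CPM in those of Mettl3 KO and 34.2 to 54.9 CPM in Mettl14 KO. The log2 difference was -0.09 (SE 0.21) in Mettl3 KO and 0.32 (SE 0.18) in Mettl14 KO, with edgeR adjusted p of 0.736 and 0.541. The Mettl3 KO sign turned under other scalings (0.10 with plain library totals), so no direction is given for it.

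Pvr (CD155) and Nectin2 (CD112) are adhesion proteins that bind the inhibitory receptor TIGIT and the activating receptor CD226. Pvr (ENSMUSG00000040511, chr7:19903578-19921160) and Nectin2 (ENSMUSG00000062300, chr7:19716644-19750483) lie near each other on the minus strand. Pvr measured 62.3, 71.8, 75.7, 118 and 128 CPM in control and 42.4, 78.4, 59.8, 58.0 and 78.1 CPM in Mettl3 KO. In Mettl14 KO it measured 108, 94.4, 94.1, 88.5 and 108 CPM, with a coefficient of variation of 9.02%, the lowest of any member and group. Control libraries 4 and 5 stood high, and the control range overlapped both knockouts. The log2 difference from control was -0.60 (SE 0.23) in Mettl3 KO and 0.08 (SE 0.19) in Mettl14 KO, with edgeR adjusted p of 0.106 and 0.98. Nectin2 differed little, with means of 18.1 ± 4.6 CPM for control, 18.7 ± 2.84 for Mettl3 KO and 19.4 ± 2.84 for Mettl14 KO tumors. The 95% interval of its fold against control was 0.743 to 1.31 in Mettl3 KO and 0.825 to 1.3 in Mettl14 KO.

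Tnfrsf14 (HVEM), a TNF receptor family member that acts as ligand of the inhibitory receptor BTLA, lies at chr4:154921933-154928563 on the minus strand (ENSMUSG00000042333). It measured 5.31, 8.93, 12.7, 13.2 and 8.09 CPM in control. The values were 15.7, 17.8, 14.0, 12.7 and 20.1 CPM in Mettl3 KO and 27.3, 22.6, 19.9, 33.9 and 10.5 CPM in Mettl14 KO. In each knockout 4 of 5 libraries lay above every control, and 1 lay within the control range. The log2 difference was 0.67 (SE 0.23) in Mettl3 KO, or 1.59-fold, and 1.19 (SE 0.29) in Mettl14 KO, or 2.28-fold, and neither passed (edgeR adjusted p = 0.0767 and 0.196). Without control replicate 1 both passed (log2 differences 0.74 and 1.08, edgeR adjusted p = 0.00774 and 0.0483). In that fit of Mettl3 KO 51.6% of all genes were called, and in that of Mettl14 KO 4.86%.

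Cd276 (B7-H3) and Vsir (VISTA) are B7 family proteins, the first common on tumor and stromal cells and the second on myeloid cells. Cd276 (ENSMUSG00000035914) lies at chr9:58524298-58555437 on the minus strand and Vsir (ENSMUSG00000020101) at chr10:60346851-60372684 on the plus strand. Cd276 ranged from 9.18 to 13.9 CPM in control tumors, 8.75 to 16.3 CPM in those of Mettl3 KO and 10.4 to 14.7 CPM in Mettl14 KO. Its fold against control had a 95% interval of 0.746 to 1.32 in Mettl3 KO and 0.925 to 1.43 in Mettl14 KO. Vsir measured 31.7, 37.9, 72.9, 57.8 and 57.1 CPM in control tumors, 82.7, 56.2, 47.6, 41.2 and 57.2 CPM in those of Mettl3 KO and 81.2, 63.5, 44.9, 146 and 39.5 CPM in Mettl14 KO. The groups overlapped, and Mettl14 KO replicate 4 stood well above all other libraries. The log2 difference of Vsir was 0.08 (SE 0.26) in Mettl3 KO and 0.49 (SE 0.33) in Mettl14 KO, with edgeR adjusted p of 0.815 and 0.665.

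**Figure D1:**
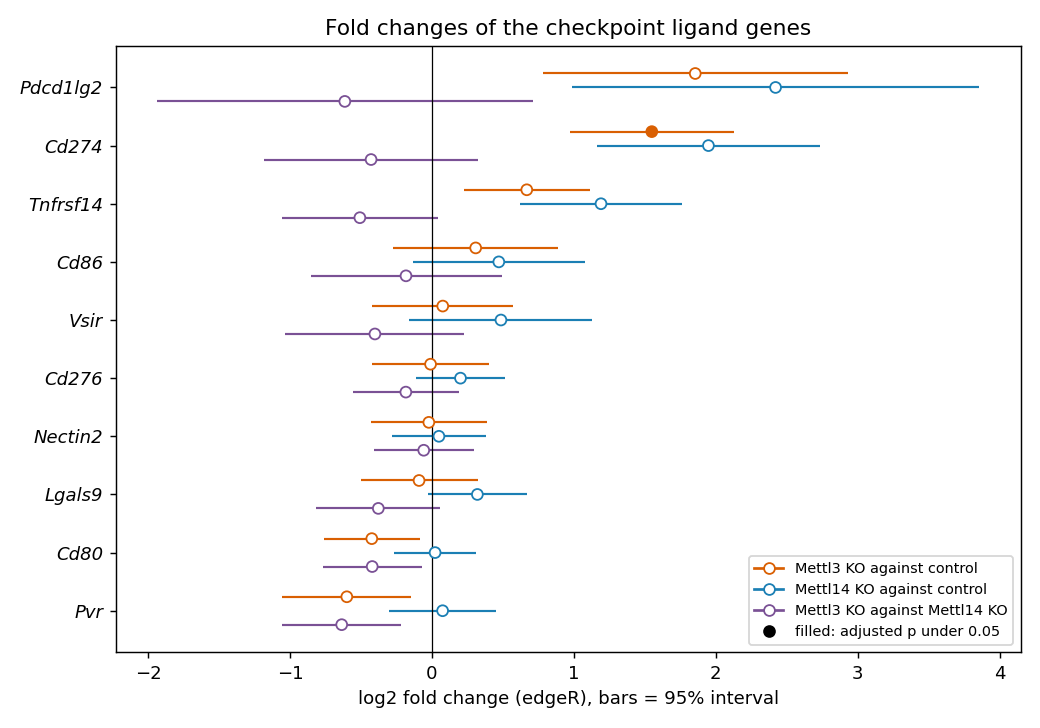
Log2 fold change of each of the 10 members in the 3 comparisons, with bars of the 95% interval from the edgeR fit. Filled points mark an adjusted p under 0.05, which only Cd274 in Mettl3 KO against control reached. Cd274, Pdcd1lg2 and Tnfrsf14 have intervals above 0 in both knockouts.

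The authors' deposited table, with column names that DESeq2 writes, gave Cd274 a log2 fold change of 1.67 in Mettl3 KO (SE 0.31, adjusted p = 1.87e-05) and 1.96 in Mettl14 KO (SE 0.40, adjusted p = 0.000237). Pdcd1lg2 had 2.13 in Mettl3 KO and 2.59 in Mettl14 KO in the authors' deposited table (adjusted p = 0.0112 and 0.0201). For Tnfrsf14 the authors' deposited table gave 0.77 in Mettl3 KO (adjusted p = 0.0713) and 1.27 in Mettl14 KO (adjusted p = 0.0175). Of all genes with an adjusted p, the share under 0.05 in the authors' deposited table was 11.6% in Mettl3 KO and 2.98% in Mettl14 KO. The other 7 members lay above 0.05 in both parts of the authors' deposited table.

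In Mettl3 KO against Mettl14 KO, tested in 1 fit of the 15 libraries, 0 of 10 members and 0% of 24566 genes were called by edgeR. DESeq2 called 0 members and 0.352% of the 19319 genes with an adjusted p. All 10 log2 differences were negative, with a median of -0.41 beside -0.02 over all genes, whereas 3 of 10 were positive with limma voom and cyclic loess. Without Mettl14 KO replicate 4, 5 of 10 were positive, with a median of -0.036 beside 0.154 over all genes. An unadjusted p under 0.05 was reached by 2 members, Cd80 and Pvr, and by 12.8% of genes. Pvr was lower in 5 of 5 Mettl3 KO libraries than in any Mettl14 KO library, a pattern seen in the lower direction for 1.88% of genes (higher for 0 members and 1.65%), with a log2 difference of -0.64 (SE 0.22) and an edgeR adjusted p of 0.349. For Cd80 the log2 difference was -0.42 (SE 0.18, edgeR adjusted p = 0.349). The 2 knockouts were not distinguishable for Cd274, with a log2 difference of -0.43 (SE 0.38), a 95% interval of the fold of 0.441 to 1.25 and an edgeR adjusted p of 0.458.

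Compared per kilobase of exon, the members changed places between groups. In control, Lgals9 had the highest level at 15.2 ± 3.49 CPM per kb, followed by Pvr at 14.9 ± 4.88, Vsir at 10.3 and Cd274 at 8.18 ± 2.20. Then came Tnfrsf14 at 6.70, Cd80 at 5.96, Nectin2 at 5.19, Cd86 at 3.75 and Cd276 at 2.90 ± 0.535 CPM per kb, with Pdcd1lg2 last at 1.04 ± 0.364. Only the last neighbours, Cd276 and Pdcd1lg2, had ranges that did not overlap. Cd274 stood first in Mettl3 KO at 24.5 ± 9.99 and in Mettl14 KO at 32.9 CPM per kb, and its range overlapped that of Lgals9, which came next. Of the neighbours in each knockout's order, only Pvr and Nectin2 in Mettl3 KO and Vsir and Cd80 in Mettl14 KO had ranges apart. Genes further down still overlapped those above. Pdcd1lg2 went up to 9.88 CPM per kb in Mettl3 KO, where Pvr went down to 6.93. In Mettl14 KO it went up to 15.4 CPM per kb, where Vsir went down to 7.88. The Pdcd1lg2 mean was 3.91 in Mettl3 KO and 5.82 CPM per kb in Mettl14 KO, beside Cd276 at 3.02 and 3.44. The Mettl3 KO mean rested on replicate 1: without it Pdcd1lg2 was at 2.42 and Cd276 at 3.10. Without replicate 4 of Mettl14 KO, Pdcd1lg2 was at 3.43 and Cd276 at 3.37 there. Pdcd1lg2 was above Cd276 in 2 of 5 libraries of Mettl3 KO and in 3 of 5 of Mettl14 KO. Exons of antisense genes overlap those of Cd274, Nectin2 and Cd276, and without a stated strand setting their reads cannot be told apart. Where the antisense gene had a row it reached at most 0.729 CPM beside Nectin2 and 1.13 CPM beside Cd276.

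**Figure D2:**
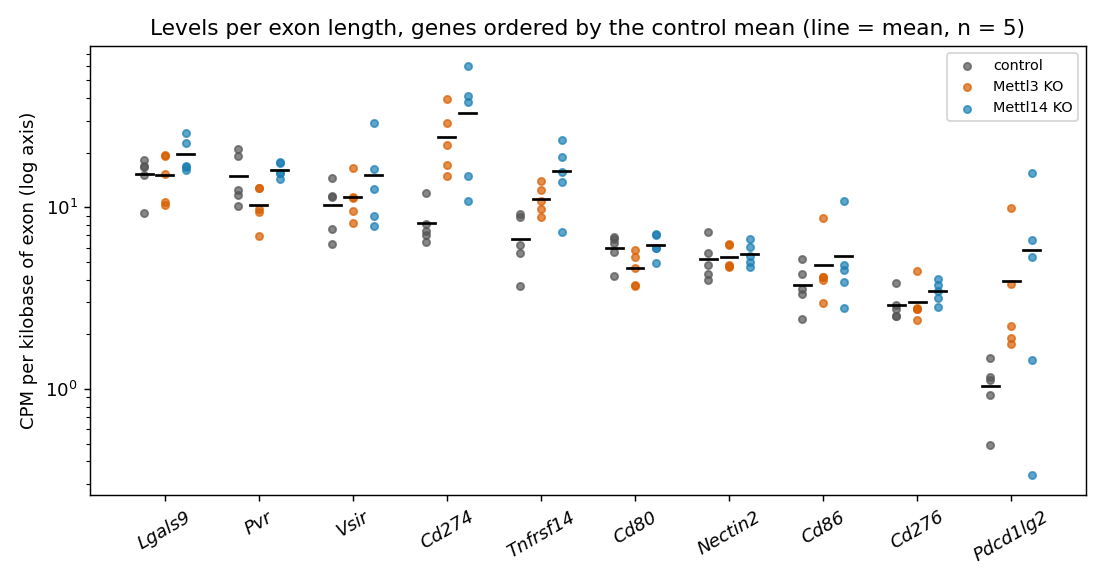
Level in CPM per kilobase of exon of the 10 members in each group, with the mean as a line and the 5 libraries as points, on a log axis. Cd274 has the fourth level in control, 8.18 CPM per kb, and the highest in Mettl3 KO and Mettl14 KO, 24.5 and 32.9 CPM per kb.

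Irf1, an interferon-induced transcription factor and known regulator of Cd274, passed the threshold as higher in Mettl3 KO in the main fit. Its result under other settings is not given here, and the Cd274 call at a like adjusted p depended on the setting. It measured 41.2, 52.3, 90.8, 108 and 61.8 CPM in control and 219, 175, 154, 146 and 167 CPM in Mettl3 KO. In Mettl14 KO it measured 317, 217, 130, 394 and 84.5 CPM. All 5 Mettl3 KO libraries lay above every control, a pattern seen for 1.76% of all genes tested. So did 4 of 5 Mettl14 KO libraries, and Mettl14 KO replicate 5 lay within the control range. The mean of Irf1 rose from 70.8 ± 27.7 to 172 ± 28.3 CPM in Mettl3 KO, a log2 difference of 1.23 (SE 0.25, edgeR adjusted p = 0.0463). In Mettl14 KO the log2 difference was 1.64 (SE 0.39), which did not pass (edgeR adjusted p = 0.186).

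Receptors that the ligands bind were read as a list of 13 genes, all tested, and 0 were called in any of the 3 comparisons by edgeR. An unadjusted p under 0.05 was reached by 5 in Mettl3 KO, 6 in Mettl14 KO and 1 between the knockouts, beside 32.3%, 11.3% and 12.8% of all genes. DESeq2 called 2, 2 and 0, beside 22.8%, 3.61% and 0.352% of genes with an adjusted p. With limma voom 1, 0 and 0 were called, beside 2.23%, 0% and 0% of all genes. Their median log2 difference was 0.72 in Mettl3 KO and 0.85 in Mettl14 KO, with 11 of 13 positive in each. Pdcd1, which encodes PD-1, measured 3.38, 2.02, 5.22, 6.19 and 1.5 CPM in control and 21.2, 10.3, 8.57, 16.1 and 9.48 CPM in Mettl3 KO. In Mettl14 KO it measured 20.0, 8.63, 3.82, 53.6 and 2.52 CPM. Its Mettl3 KO libraries all lay above the controls (log2 difference 1.79, SE 0.42, edgeR adjusted p = 0.0524), while 3 of 5 Mettl14 KO libraries did (2.20, SE 0.74, edgeR adjusted p = 0.296). Btla, the receptor of Tnfrsf14, had means of 1.14 ± 0.362 CPM for control, 4.40 ± 1.63 for Mettl3 KO and 4.37 ± 2.89 for Mettl14 KO tumors. Every library of both knockouts lay above every control for Btla, at log2 differences of 1.90 (SE 0.43) and 1.89 (SE 0.45) and edgeR adjusted p of 0.0524 and 0.189. Of all genes tested, 1.76% in Mettl3 KO and 0.682% in Mettl14 KO had all knockout libraries above every control. Pdcd1 and Btla were named for the smallest p of their list in Mettl3 KO.

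Further checkpoint and costimulatory genes were a list of 16, mostly B7, butyrophilin, nectin and TNF family ligands with Lgals3, Ceacam1, Fgl1 and the receptor gene Cd40, of which 11 had enough reads for the test in Mettl3 KO and 12 in Mettl14 KO, and 0 were called by edgeR. An unadjusted p under 0.05 was reached by 5 and 2 of them, beside 32.3% and 11.3% of all genes. DESeq2 called 3 and 0, beside 22.8% and 3.61% of genes with an adjusted p. With limma voom 1 and 0 were called, beside 2.23% and 0% of all genes. In Mettl3 KO 7 of 11 differences were positive, and among the lower genes, chosen after their values were seen, were Lgals3 at -0.69 (SE 0.22) and Tnfsf9 at -0.63 (SE 0.28), with edgeR adjusted p of 0.0662 and 0.142. The median log2 difference was 0.99 in Mettl3 KO and 0.16 in Mettl14 KO. Icosl, the ligand of ICOS, had means of 4.35 ± 0.985 CPM in control and 9.96 ± 3.17 CPM in Mettl3 KO, with 5 of 5 libraries above every control (log2 difference 1.13, SE 0.27, edgeR adjusted p = 0.0524). That pattern was seen for 1.76% of all genes tested. Cd40, the receptor through which helper T cells activate antigen-presenting cells, had a log2 difference of 1.5 (SE 0.46, edgeR adjusted p = 0.0622).

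Summed T cell markers and summed neutrophil markers were highest in the libraries where Cd274 was highest. The macrophage sum was not high in all of them. The summed level of 10 T cell markers spanned 14.0 to 57.8 CPM over the controls, 59.9 to 203 CPM over Mettl3 KO and 35.7 to 297 CPM over Mettl14 KO libraries. All 10 had positive log2 differences in both knockouts and 0 of 10 were called by edgeR, with medians of 1.45 and 1.51. Unadjusted p was under 0.05 for 9 and 6 of them, beside 32.3% and 11.3% of all genes. DESeq2 called 6 and 3, beside 22.8% and 3.61% of genes with an adjusted p. With limma voom 2 and 0 were called, beside 2.23% and 0% of all genes. The libraries highest in Cd274 were also those highest in T cell markers: Mettl14 KO replicate 4 with 217 and 297 CPM, replicate 1 with 149 and 114, and replicate 2 with 138 and 118, and Mettl3 KO replicate 1 with 143 and 203, and replicate 4 with 105 and 125. Mettl14 KO replicates 3 and 5, the lowest of their group in Cd274, had T cell sums of 45.6 and 35.7 CPM, within the control range. The sum of 5 leukocyte markers spanned 200.0 to 427, 444 to 967 and 323 to 1480 CPM in the same order. The sum of 12 macrophage and monocyte markers was 1220 to 2520, 1290 to 3220 and 1790 to 5130 CPM, with Lyz2 and Mrc1 its largest parts. It was 1290 CPM in Mettl3 KO replicate 4 and 2080 and 1840 CPM in Mettl14 KO replicates 1 and 2, all high in Cd274. Of the 12 genes, 8 had positive log2 differences in Mettl3 KO and 11 in Mettl14 KO, with medians of 0.07 and 0.50. Unadjusted p was under 0.05 for 4 and 5 of the 12, beside 32.3% and 11.3% of all genes. DESeq2 called 3 and 2, beside 22.8% and 3.61% of genes with an adjusted p. With limma voom 2 and 0 were called, beside 2.23% and 0% of all genes, and with edgeR 0. Mean Lyz2 and Mrc1 were 1010 and 428 CPM in control and 805 and 241 CPM in Mettl3 KO. Mean Fcgr1, Ly6c2 and Ccr2 were 21.8, 2.43 and 47.9 CPM in control and 41.6, 8.85 and 87.2 CPM in Mettl3 KO. For 11 dendritic cell markers the sums were 100.0 to 148, 146 to 238 and 115 to 305 CPM. Krt20 made up most of the sum of 8 epithelial markers, with means of 186, 57.2 and 102 CPM in control, Mettl3 KO and Mettl14 KO, and 5 of the 7 epithelial markers tested in Mettl3 KO had positive differences. Fibroblast markers (7 genes) summed to 1380 to 3270, 1250 to 4230 and 1890 to 7480 CPM. Their highest sums were 7480 and 6040 CPM in Mettl14 KO replicates 4 and 1, 4230 CPM in Mettl3 KO replicate 1 and 4010 CPM in Mettl14 KO replicate 2, while Mettl3 KO replicate 4 had the lowest, 1250 CPM. B cell markers summed to 7.14 to 42.2, 18.1 to 96.7 and 18.3 to 80.9 CPM and neutrophil markers to 16.5 to 29.9, 22.7 to 59.0 and 23.8 to 150.0 CPM. Like the T cell sum, the neutrophil sum was highest in the libraries highest in Cd274. It was 150, 30.5 and 41.9 CPM in Mettl14 KO replicates 4, 1 and 2, and 59.0 and 46.9 CPM in Mettl3 KO replicates 1 and 4. Control replicate 1 came next at 29.9 CPM. The sum of 5 skeletal muscle markers was 23.0 to 272, 22.3 to 643 and 3.74 to 31.1 CPM. No marker of these lists was at 0 in all libraries of a group. In bulk tumor RNA, more cells of a type and more RNA per cell cannot be told apart, and the part of any of these cells in the Cd274 difference was not tested.

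**Figure D3:**
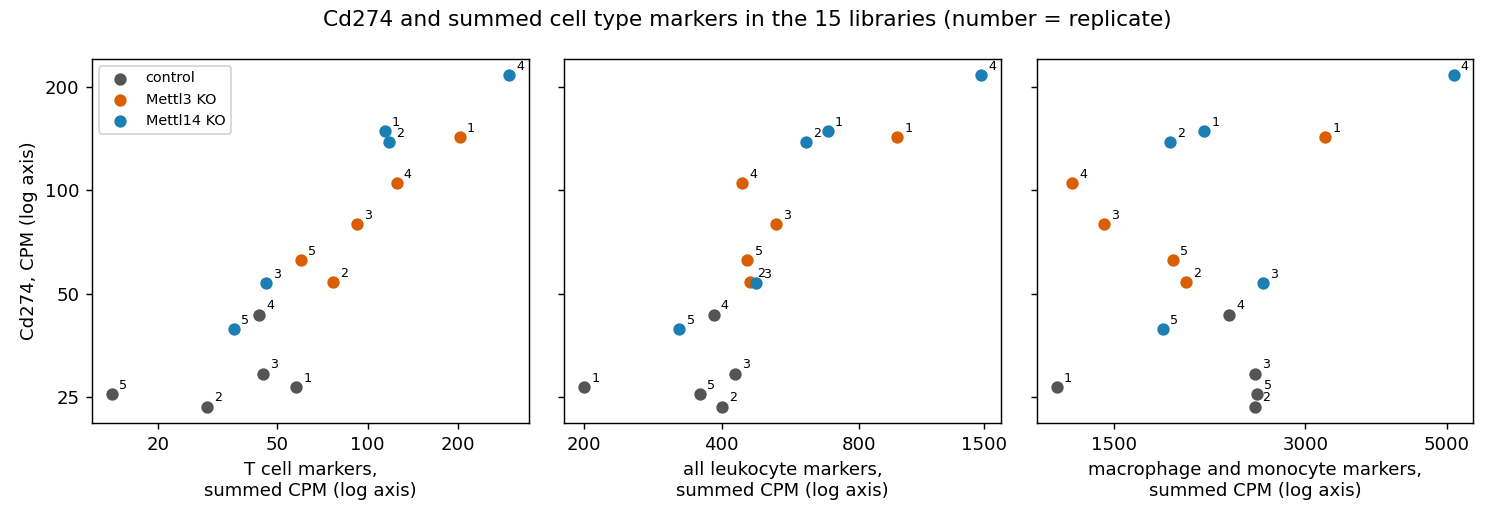
Cd274 level against the summed level of T cell, leukocyte and macrophage and monocyte markers in the 15 libraries, both axes in CPM on log scales, with replicate numbers beside the points. Mettl14 KO replicate 4 is highest on every axis (217 CPM Cd274, 297 CPM T cell markers), and Mettl14 KO replicates 3 and 5 lie nearest the controls in the T cell panel.

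Some members varied together and others did not. Mettl14 KO replicate 4 was the highest of the 15 libraries for 6 of 10 members, Cd274, Pdcd1lg2, Cd86, Lgals9, Tnfrsf14 and Vsir, and for 10.4% of 24566 genes. Over the 15 libraries, which share depth and cell makeup across genes, the log2 CPM of Cd274 and Pdcd1lg2 had a Pearson r of 0.865, and of 0.853 after the group means were taken out. Cd274 and Tnfrsf14 had 0.810 and 0.589, Cd86 and Vsir 0.769 and 0.752, and Tnfrsf14 and Vsir 0.745 and 0.802. Of the 45 pairs, 16 had an r over 0.5 with the group means out and 5 had a negative one, the lowest being Cd86 and Pvr at -0.426, with a median of 0.395. These are descriptions over 15 libraries with no test.

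Among 16727 genes with a mean of at least 1 CPM, those whose log2 CPM over the 15 libraries was most like that of Cd274 were Hk3 (r = 0.987), Ccdc88b (0.980), Ptk2b (0.976), Acod1 (0.975) and Fam196b (0.974). Hk3 had a mean of 47.7 CPM and kept an r of 0.975 with the group means removed. Those most like Pdcd1lg2 were Sfrp1 (0.960), Azin2 (0.946), Ass1 (0.936), Setbp1 (0.936) and Cdh11 (0.935), none of which was on the Cd274 list. For Cd86 they were Frmd4b (0.957), Bcl2a1d (0.955), Ifi205 (0.951), Gimap6 (0.947) and Fpr2 (0.944). For Vsir they were Limd2 (0.979), Psap (0.959), C1qb (0.952), C1qa (0.950) and Slc9a3r1 (0.945), where C1qa and C1qb encode complement chains made by macrophages. Cd276 had lower values after the first pair, with Itgb7 (0.929), Thbs2 (0.925), B4galt3 (0.842), Adamts4 (0.825) and Rmdn3 (0.822).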

How the data were processed

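RNA-seq of 15 tumors was used; 12 immunoprecipitation and input samples of the 27 in the series were not analysed here. The submitters' processing notes name HISAT2 2.1.0, mm10, HTSeq 0.11.2, cutadapt 1.18 and DESeq2, and the sources used here give no annotation release or strand setting. Unnormalized counts of reads for each Ensembl gene came from the authors' 2 tables, whose control columns were the same. For each knockout the authors deposited log2 fold changes with standard errors and p-values, per the file headers, beside a mean normalized signal and a test score that were not used. Samples were grouped by title, since the genotype field of those titled Mettl14 names Mettl4. Lines for reads outside genes were left out.

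Counts were tested with edgeR 4.0.16 in R 4.3.3 (quasi-likelihood, TMM, filterByExpr at a minimum count of 10, Benjamini-Hochberg threshold 0.05), fitted to the 10 libraries compared, or to all 15 for the difference of the knockouts. SE came from the F statistic, and 95% intervals from the SE with a normal quantile, so they are narrower than the test implies. For Ceacam1 in Mettl3 KO the interval of the fold was 0.506 to 0.991 at an unadjusted edgeR p of 0.0671. All 10 members passed the filter. On simulated data with 200 genes changed 4-fold, 180 were recovered for Mettl3 KO (21427 genes, 5 false calls). For Mettl14 KO 188 were recovered (21555 genes, 6 false calls). Recovery at the spread that single members had between libraries was not tested. In the Mettl14 KO libraries the coefficient of variation was 61.3% for Cd274 and 102% for Pdcd1lg2. At 3.86-fold and 5.36-fold against control, neither was called by edgeR. Alternatives were other scalings, filters, DESeq2 1.42.0, limma 3.58.1 voom, a covariate, a replicate block and leaving out libraries. Exon lengths are from GENCODE M21. The members and lists were chosen with earlier results of these data known. Named are all members, list genes past the threshold or, with none, the 2 with the smallest p in Mettl3 KO, and the 5 genes most like each of 5 members (gene models and pseudogenes left out). From the list of Cd274 regulators 1 gene is not reported here, so only Irf1 is described and no counts of that list are given.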

Additional observations from a re-analysis of the deposited data

Results flagged for a closer look

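Of 30 groups of 5 libraries (10 members in 3 groups), 4 held 1 library far from the other 4, by a gap measured against the range of the group. For independent groups of normally distributed values, chance gives about 1 in 20. The members share libraries and vary together in part, so the 4 cannot be judged against that rate. Pdcd1lg2 measured 19.4 CPM in Mettl3 KO replicate 1, with the next library at 7.37 CPM. Cd86 measured 32.1 CPM in the same library, with the next at 15.1 CPM. Cd86 also stood apart in Mettl14 KO replicate 4, at 39.7 CPM with the next at 17.7 CPM. Cd276 measured 16.3 CPM in Mettl3 KO replicate 5, with the next at 10.2 CPM.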

How the results depend on the processing

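In Mettl3 KO against control 266 genes and 1 member were called. The counts of genes were 100 with RLE scaling, 122 with library totals, 62 with no filter, 81 with a mean of at least 1 CPM, 2700 with DESeq2, 478 with voom and cyclic loess, 55 with the share of reads outside genes as covariate, 42 with all 15 libraries in one fit and 35 to 11625 with 1 library left out (35 without control replicate 2, 11625 without control replicate 1). The members called were 0 with no filter, with the covariate and with all 15 libraries, 2 with DESeq2 and with voom (Cd274 and Tnfrsf14), 1 elsewhere, and 0 to 3 with 1 library left out. Pdcd1lg2 had no adjusted p with DESeq2 there. In Mettl14 KO against control, where 0 were called, the genes were 47 with no filter, 505 with DESeq2, 50 with all 15 libraries and 0 to 1054 with 1 library left out (1054 without control replicate 1, 148 without Mettl14 KO replicate 5). The members were 1 with no filter and with all 15 libraries (Cd274), 3 with DESeq2 and 0 to 2 with 1 library left out. Between the knockouts DESeq2 called 68 genes, leaving out 1 library gave 0 to 1, and 0 members were called in every setting run. The replicate block called 6002 genes and 3 members (Cd274, Pdcd1lg2, Pvr) in Mettl3 KO and 14 genes and 0 members in Mettl14 KO. Same-numbered libraries did not all deviate together (r from -0.24 to 0.62 and from -0.76 to 0.22), so the numbers were not taken as pairs. In Mettl3 KO r was 0.615 and 0.587 for replicates 1 and 5, but 0.054, -0.241 and -0.229 for replicates 2 to 4. Cd274 in Mettl3 KO kept its direction in every setting run, with adjusted p of 0.124 with no filter, 0.24 with the covariate and 0.0762 with all 15 libraries. Signs turned only for log2 differences that were not called. In Mettl3 KO these were Cd276 (0.086 with DESeq2, 0.087 RLE scaling, 0.168 library totals, 0.101 mean of at least 1 CPM, 0.151 covariate, 0.146 voom, 0.062 all 15 libraries; -0.085 to 0.242 with 1 library left out), Lgals9 (0.003 DESeq2 and RLE, 0.104 library totals, 0.019 mean of at least 1 CPM, 0.324 covariate, 0.32 voom; -0.234 to 0.181), Nectin2 (0.069 DESeq2, 0.073 RLE, 0.137 library totals, 0.078 mean of at least 1 CPM, 0.005 replicate block, 0.058 covariate, 0.259 voom, 0.036 all 15 libraries; -0.022 to 0.258) and Vsir (-0.141 no filter). Between the knockouts these were Cd274 (0.023 voom; -0.668 to 0.006), Vsir (0.029 voom; -0.584 to 0.07), Nectin2 (0.019 with only the 10 knockout libraries, 0.058 covariate, 0.119 voom; -0.128 to 0.104), Cd86 (-0.474 to 0.324) and Pdcd1lg2 (-1.242 to 0.253). In Mettl14 KO they were Cd80 (-0.048 to 0.112), Pvr (-0.007 to 0.222) and Nectin2 (-0.01 to 0.197). The causes were not tested. Depth limits Pdcd1lg2 most, with as few as 5 reads in a library.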
